A study of Caenorhabditis elegans with 6 samples.

Results

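The genes described are the cuticle collagens of *C. elegans* that carry a col name, that is, the symbol col followed by a number. They are 157 of the 20362 genes in the count table. RNA of whole nematodes was sequenced from 3 libraries of *grh-1* OEx line 1 and 3 libraries of wild-type N2 (WT). *grh-1* OEx carries a fusion of *grh-1*, the nematode gene for a Grainyhead transcription factor, with *gfp*, driven by the promoter of the heat shock gene *hsp-16.2*. It was made by bombardment of an *unc-119* mutant strain, was backcrossed to N2 and is 1 line. Neither group received heat shock. All nematodes were synchronized populations fed *E. coli* OP50 at 20 °C and collected 48 h after reaching young adulthood. The question for this gene family was which cuticle collagens differ in *grh-1* OEx, at what expression level, and in which libraries.

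The nematode cuticle is an extracellular coat built largely of small collagens that the epidermis secretes and cross-links. A new cuticle is made at each molt, when collagen genes are transcribed in successive waves, and the adult cuticle contains collagens that larvae do not use. Grainyhead factors are known from flies and mammals as regulators of epidermal barrier genes. Of the 157 col genes, all were described as collagens in the deposited annotation and 141 had its term for a structural constituent of the cuticle. *col-99*, which encodes a transmembrane collagen, also had that term, and with 18 exons it was the gene with the most exons. The other genes were short, with 2 exons in 75 of them and 3 exons in 30. Their median width was 990 bases (quartiles 938 and 1069), against 1064 bases over all genes, and their median GC content was 53.18%, against 40.8%. Chromosome IV held 41 of them, which is 26.1% of the family and compares with 16.3% of all genes.

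The libraries held 15287284 to 20314670 counts in *grh-1* OEx and 14409044 to 25535026 in WT. WT replicate 3 stood apart from the other 5 libraries on the first principal component, and its summed level of sperm markers, the 31 genes named msp for major sperm protein, was 610 CPM. CPM are counts scaled to a common library size, here with TMM factors. That sum was 28.2, 86.9 and 35.8 CPM in the libraries of *grh-1* OEx and 13.5 and 60.3 CPM in WT replicates 1 and 2. Of these markers *msp-32* was at 0 in every library. All 10 epidermis markers were detected. *grh-1* itself had 7.65, 9.69 and 6.52 CPM in the 3 libraries of *grh-1* OEx, against 4.997, 5.63 and 6.17 CPM in those of WT. The groups did not overlap, but the log2 fold change of 0.51 (standard error 0.21) did not pass the adjusted threshold of 0.05 (adjusted p = 0.709, quasi-likelihood test of edgeR). Reads of the construct are part of these values.

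The col genes spanned a wide range of levels, and a few held most of the counts. In total 153 had at least 1 count, and *col-37*, *col-102*, *col-127* and *col-185* had none in any of the 6 libraries. *col-126* and *col-127* are neighbours of the same width and GC content, with 1 and 0 counts, and reads shared between near-identical copies can be lost in counting, so that these counts are uncertain. By mean CPM over the 6 libraries, 41 genes lay above 0 but under 1 CPM, 56 from 1 to 10, 36 from 10 to 100, 18 from 100 to 1000 and 2 at 1000 or more. The summed mean level of the family was 11658 CPM, of which the 5 highest genes held 45.8% and the 20 genes of 100 CPM or more held 90.2%. Every library detected at least 136 of the genes.

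Levels can be compared between genes only per length, and per kilobase of gene width *col-122* was highest with a mean of 1282 ± 390 CPM per kilobase (SD, n = 6 libraries). *col-181* followed with 1195 ± 345, *col-106* with 1073 ± 302, *col-101* with 910 ± 309 and *col-119* with 893 ± 328 CPM per kilobase (SD, n = 6 each). All 5 encode cuticle collagens. The next were *col-184*, *col-140*, *col-143*, *col-95*, *col-178* and *col-8*, at 874, 725, 675, 512, 510 and 422 CPM per kilobase. *col-20* was the twelfth gene of the order, at 301 ± 88.5 CPM per kilobase (SD, n = 6). Each of these 12 genes lay within 1 SD of its neighbour, taking the larger SD of the pair, except *col-20* below *col-8*, so the order among neighbours is not fixed by these libraries. The order of the 118 tested genes by CPM, not divided by length, was similar from library to library. Spearman's rho was 0.879 to 0.978 between any 2 libraries (across genes of 1 family, which are not independent replicates).

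**Figure D1:**
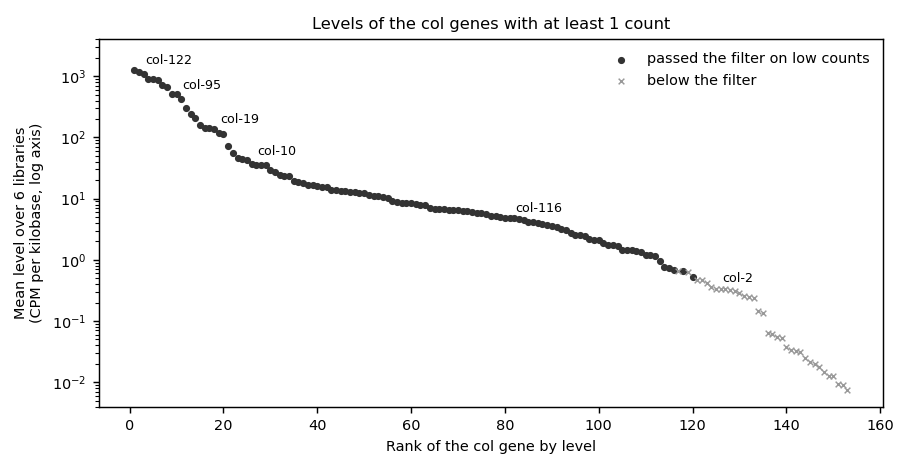
Mean level over the 6 libraries of each of the 153 col genes with at least 1 count, in CPM per kilobase on a log axis, against its rank. Filled points are the genes that passed the filter on low counts and crosses the genes below it. The levels run from 1282 CPM per kilobase for *col-122* down to less than 0.01, with *col-19* and *col-10* between.

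Members with a known stage were looked at next. *col-19*, a collagen gene of the adult cuticle, had 98.4, 184 and 181 CPM in the 3 libraries of *grh-1* OEx, against 82.0, 120 and 197 CPM in those of WT. *col-2*, known as a dauer collagen, had 37 counts in all libraries together and did not pass the filter. *col-7* and *col-62*, which are also known from the adult, were at 0.958 and 1.45 CPM per kilobase on average, near the low end of the tested genes. The groups overlapped for *col-19*, *col-7* and *col-62*, and none of the 3 passed the test.

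*col-10*, *col-13*, *col-120* and *col-144*, which are known from studies of long-lived nematodes, were of low to middle level. *col-10* had 40.3, 56.2 and 28.0 CPM in *grh-1* OEx, against 36.9, 50.2 and 33.7 CPM in WT, with libraries given here and from here on in the order of replicates 1 to 3. *col-144* stood at 35.6, 48.4 and 26.8 CPM in *grh-1* OEx and 30.3, 41.9 and 31.5 CPM in WT. *col-13* stood at 4.19, 2.91 and 4.01 CPM in *grh-1* OEx and 1.96, 5.25 and 2.65 CPM in WT. In each of these 3 genes the groups overlapped. *col-12* and *col-13* are near-identical neighbours, so the assignment of reads between them is uncertain. *col-12* stood at 8.71, 7.96 and 6.96 CPM in *grh-1* OEx, against 4.12, 9.51 and 5.48 CPM in WT. Its groups overlapped as well. *col-99* had 9.44, 10.97 and 7.28 CPM in *grh-1* OEx and 9.45, 11.97 and 8.63 CPM in WT, also with overlap.

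Levels also differed sharply between neighbours in the genome. Col genes at most 10000 bases apart formed 21 clusters with 50 genes. In 20 of these clusters all genes had counts, and the highest gene of a cluster exceeded the lowest by a median of 5.89-fold per kilobase, by more than 10-fold in 8 clusters. On chromosome V, *col-143* was at 675 CPM per kilobase and *col-141*, in the same cluster, at 0.740, a ratio of 912. On chromosome III, *col-95* was at 512 and its neighbour *col-96* at 4.44 CPM per kilobase. The largest cluster, of 5 single-exon genes on chromosome X, ran from *col-167* at 35.1 to *col-171* at 0.0092 CPM per kilobase.

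In the test of *grh-1* OEx against WT, 118 col genes passed the filter on low counts and 39 did not. Of the 118, 0 passed the adjusted threshold of 0.05 in edgeR, against 61 of all 13736 tested genes, which is 0.444% (0.146% higher and 0.298% lower in *grh-1* OEx). The smallest adjusted p among the col genes was 0.145, of *col-116*. limma-voom also called 0, while DESeq2 called 4 of the 118, namely *col-95*, *col-106*, *col-116* and *col-122*, and it called 148 of all 13736 genes. edgeR called *col-95* and *col-116* when WT replicate 1 was left out, among 244 of all 14234 genes tested then. It called *col-93* and *col-95* when WT replicate 3 was left out, among 135 of 13896.

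At an unadjusted p under 0.05, there were 17 col genes (14.4% of those tested), against 6.62% of all tested genes. Of these, 8 had higher means in *grh-1* OEx (6.78%, against 2.18% of all tested genes) and 9 had lower means (7.63%, against 4.44%). The groups did not overlap in 14 col genes (11.9%, against 9.53% of all tested genes), of which 5 were higher in *grh-1* OEx (4.24%, against 3.39%) and 9 lower (7.63%, against 6.14%). Without *grh-1* OEx replicate 2 there were 6 col genes in either direction (5%, against 4.23% of all tested genes), 3 on each side. Without WT replicate 2 there were 34 (27.9%, against 7.77%), of which 23 were on the higher side. Without WT replicate 3 there were 28 (23.1%, against 8.68%), of which 17 were on the higher side. The shares of all tested genes on the higher side in these fits are not given here. The median log2 fold change of the 118 genes was 0.10 (quartiles -0.20 and 0.35), against -0.01 over all tested genes.

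With all 6 libraries the direction divided by expression level, at a split of 100 CPM that was chosen after seeing the data. Among the 20 col genes of 100 CPM or more, 15 had a log2 fold change below 0 (75%, against 58.8% of all tested genes of that level), and their median was -0.46 (quartiles -0.60 and -0.08), against -0.02. In 8 of the 20 the groups did not overlap and were lower in *grh-1* OEx (40%, against 4.77%), and 7 were lower at an unadjusted p under 0.05 (35%, against 3.03%). Most of the genes compared, 2301 of 2410, lay from 100 to 1000 CPM. From 100 to 1000 CPM, 13 of 18 col genes were below 0 (72.2%, against 57.5%), with a median of -0.41, against -0.02. Both col genes of 1000 CPM or more were below 0, with a median of -0.59. All 109 tested genes of that level had a median of -0.21, and 86.2% of them were below 0. Among the 98 tested col genes under 100 CPM, 67 had a log2 fold change above 0 (68.4%, against 49% of all tested genes of that level), and their median was 0.18. That median was 0.024 without *grh-1* OEx replicate 2, 0.39 without WT replicate 2 and -0.14 without WT replicates 1 and 3 together. In that last fit the members of 100 CPM or more also had a median of -0.14, so the direction did not divide by level there. With all libraries, 6 of the 98 had higher means with an unadjusted p under 0.05 (6.12%, against 2.47%).

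**Figure D2:**
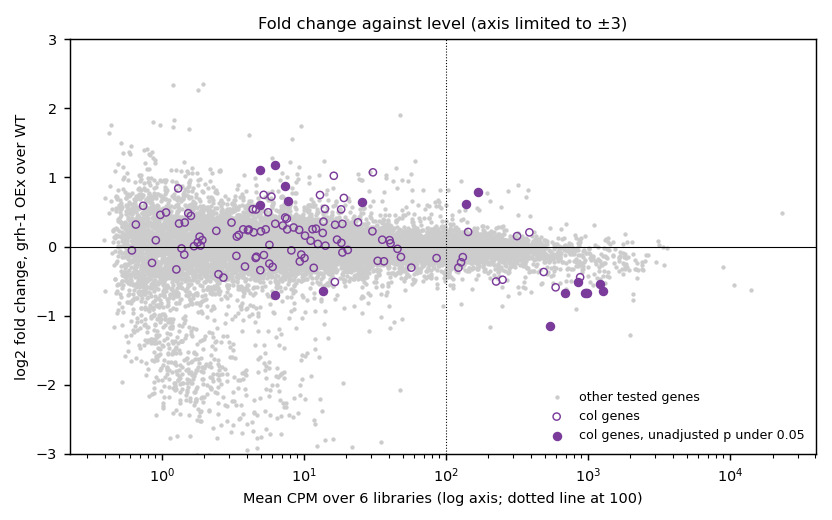
log2 fold change of *grh-1* OEx over WT against mean CPM on a log axis. Grey dots are the other tested genes, open circles are col genes and filled circles are the 17 col genes at an unadjusted p under 0.05; the dotted line is at 100 CPM. 31 of the tested genes, none of them col genes, lie beyond the axis limit of 3. The col genes of 100 CPM or more lie mostly below 0, with a median of -0.46.

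The abundant col genes deviated most in WT replicate 3, but not in that library alone. *grh-1* OEx replicate 2 was lowest in 11 of the 20 col genes of 100 CPM or more (55%, against 23.2% of all tested genes of that level). Its median deviation from the gene's own mean was -0.32 on the log2 scale, against -0.03. In *grh-1* OEx replicate 1 that deviation was -0.28, against -0.01. WT replicate 3 was the highest of the 6 libraries in 16 of the 20 (80%, against 49.4% of all tested genes of that level) and above the gene's own mean in all 20. It deviated by a median of 0.60 on the log2 scale in these genes, against 0.19 over all tested genes of that level. Over the 109 tested genes of 1000 CPM or more, WT replicate 3 was highest in 74.3% and deviated by a median of 0.40. The summed levels of the sperm, oocyte, muscle, germline and intestine markers and of the collagen processing enzymes were also highest in this library, with 9603 CPM for the oocyte markers there and 5648 to 6508 CPM in the other 5. The 6 intestine markers summed to 1571, 1608 and 1557 CPM in *grh-1* OEx, against 2002, 1913 and 2488 CPM in WT, so that these sums did not overlap either. Most of each sum came from *asp-1*, an aspartyl protease gene, with 1104, 1044 and 1085 CPM in *grh-1* OEx, against 1438, 1388 and 1826 CPM in WT. The part of these markers in the result was not tested. Without WT replicate 3 the median of the 20 genes was -0.14, and 5 genes in place of 7 were lower at an unadjusted p under 0.05. With WT replicate 1 left out there were 11 such genes, with *grh-1* OEx replicate 1 left out 4, and with *grh-1* OEx replicate 2 left out 3. The share of all tested genes at this limit, of any level and in either direction, was 8.25%, 4.21% and 4.23% in turn. It was 8.68% without WT replicate 3. Shares for genes of 100 CPM or more in these fits are not given here. Of the 20 col genes, 14 to 16 had a log2 fold change below 0 when any 1 library was left out. In a bulk sample fewer cells of a type and less RNA per cell cannot be told apart.

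The 9 members with lower means in *grh-1* OEx at an unadjusted p under 0.05 were led by *col-95*, on chromosome III from 11703979 to 11705085 (WBcel235). It had 392, 290 and 332 CPM in *grh-1* OEx, against 606, 544 and 1093 CPM in WT. The groups did not overlap, and the log2 fold change was -1.15 (standard error 0.26, unadjusted p = 0.00157 and adjusted p = 0.166 in edgeR). It ran from -1.27 to -0.69 over 14 alternative tests, settings and sets of libraries.

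*col-106* on chromosome IV stood at 753, 587 and 945 CPM in *grh-1* OEx, against 1168, 1191 and 1303 CPM in WT. *col-122*, the most abundant member, stood at 1028, 915 and 1074 CPM in *grh-1* OEx, against 1334, 1386 and 1999 CPM in WT. The log2 fold changes were -0.68 (standard error 0.19) and -0.65 (standard error 0.19), and in both genes every *grh-1* OEx library lay below every WT library. *col-122* lies on the strand opposite to *lron-14*, without exonic overlap, and the library kit does not mark strand. *col-101* stood at 834, 510 and 864 CPM in *grh-1* OEx, against 1142, 902 and 1471 CPM in WT, with a log2 fold change of -0.67 (standard error 0.25). *col-143* stood at 531, 496 and 560 CPM in *grh-1* OEx, against 752, 613 and 1165 CPM in WT, with the highest value again in WT replicate 3. *col-181* and *col-184*, the 2 other abundant members, had log2 fold changes of -0.54 (standard error 0.20) and -0.51 (standard error 0.19).

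The remaining 2 of the 9 had low levels. *col-43* stood at 5.82, 3.93 and 4.52 CPM in *grh-1* OEx and 7.50, 6.12 and 9.56 CPM in WT, without overlap, and its log2 fold change was -0.70 (standard error 0.24). *col-158* stood at 8.52, 8.47 and 14.99 CPM in *grh-1* OEx and 19.04, 11.5 and 19.3 CPM in WT, with overlap, and shares 23 exonic bases with *nphp-4*.

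Among the other abundant members, *col-119*, *col-140* and *col-178* had values below 0, with log2 fold changes of -0.44, -0.59 and -0.37, and their groups overlapped. *col-8* and *col-20* had values above 0, at 0.21 and 0.15, also with overlap. *col-20* was also the col gene nearest in pattern to *col-19* over the 6 libraries, with Pearson's r of 0.91 on log2 CPM, followed by *col-49*, *col-138*, *col-159* and *col-135* with r of 0.89 to 0.85. These r values are a description over the same 6 libraries, which all share, and no p is given.

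The 8 members with higher means in *grh-1* OEx at an unadjusted p under 0.05 were mostly of low level. *col-116*, on chromosome IV from 8356766 to 8357920, had 5.97, 5.92 and 8.34 CPM in *grh-1* OEx, against 3.98, 2.73 and 2.65 CPM in WT. The groups did not overlap, and the log2 fold change was 1.11 (standard error 0.25, unadjusted p = 0.00122 and adjusted p = 0.145 in edgeR). *col-121* stood at 9.87, 10.4 and 8.09 CPM in *grh-1* OEx, against 6.89, 5.30 and 5.80 CPM in WT. It did not overlap either, and its log2 fold change was 0.66 (standard error 0.19). *col-120* stood at 4.57, 11.8 and 9.79 CPM in *grh-1* OEx, against 2.16, 4.92 and 4.36 CPM in WT. Its *grh-1* OEx replicate 1 lay within the WT range, so the groups overlapped, and the log2 fold change was 1.18 (standard error 0.38).

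*col-165* stood at 32.6, 43.1 and 19.1 CPM in *grh-1* OEx, against 18.8, 17.7 and 24.0 CPM in WT, with overlap. *col-115*, at 5.10, 8.01 and 4.58 CPM in *grh-1* OEx and 3.85, 4.54 and 3.30 CPM in WT, had values above WT in every *grh-1* OEx library and shares 19 exonic bases with *rig-4*. *col-60*, at 6.35, 12.5 and 10.1 CPM in *grh-1* OEx and 2.57, 8.26 and 4.87 CPM in WT, overlapped. The 2 abundant members of this side were *col-124* and *col-93*. *col-124* stood at 205, 212 and 222 CPM in *grh-1* OEx, against 52.1, 147 and 169 CPM in WT, without overlap and with WT replicate 1 far below the other WT libraries. Its log2 fold change was 0.79 (standard error 0.34), and it shares 71 exonic bases with *qns-1*. *col-93* stood at 187, 140 and 177 CPM in *grh-1* OEx, against 74.8, 102 and 150 CPM in WT. It overlapped in 1 WT library, and its log2 fold change was 0.62 (standard error 0.24).

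**Figure D3:**
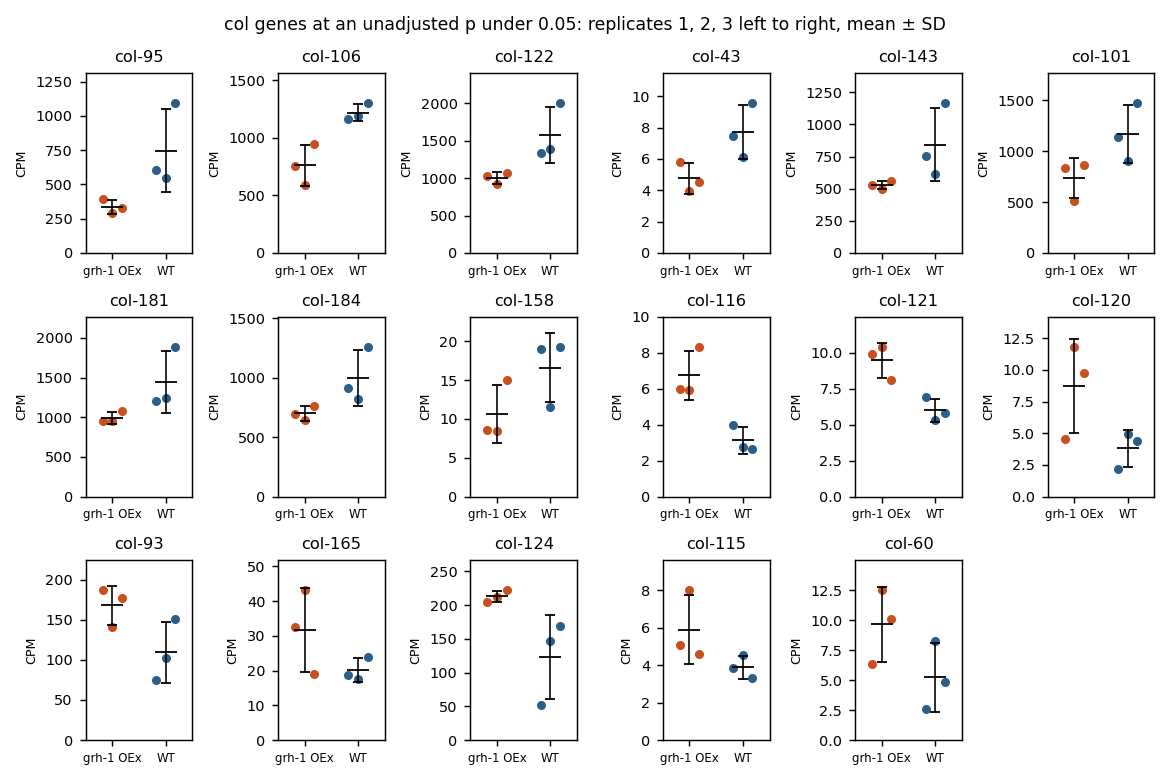
CPM by library for the 17 col genes at an unadjusted p under 0.05, the 9 with lower means in *grh-1* OEx first and the 8 with higher means after them. Points are replicates 1, 2 and 3 from left to right in each group, *grh-1* OEx left of WT, and bars are mean and SD. Of the lower members only *col-158* has overlapping groups.

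*col-116*, *col-120*, *col-121* and *col-165* are listed in the study's in silico search for GRH-1 motifs, which used 2 tools. The study kept only sites that both tools found, and by that rule *col-120* and *col-121* have a site, *col-165* has the one within the gene, and *col-116* has none. The genes searched had been selected as differing in these same samples. The sources describe them in one place as all differentially expressed genes and in another as those that were higher. The share of such motifs among all genes was not computed here. The motif matches are shown because they are the sequences linking col genes to GRH-1 in the sources used here. The capitals mark the GGTT core and the base that follows it, and the positions on WBcel235 are to within 1 base.

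*col-116*, IV:8355180-8355187, minus strand: tccGGTTT
*col-116*, IV:8355308-8355315, plus strand: actGGTTC
*col-116*, IV:8355556-8355563, minus strand: actGGTTC
*col-120*, IV:9261992-9261999, minus strand: actGGTTT
*col-121*, IV:9398259-9398266, plus strand: tctGGTTT
*col-165*, X:4352967-4352974, minus strand: actGGTTC
*col-165*, X:4353924-4353931, minus strand: acaGGTTT

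The matches of *col-116* lie 1586, 1458 and 1210 bases before its annotated start, the first 2 of them in a coding exon of *F17E9.3*, and only the FIMO tool found them. The match of *col-120* lies 232 bases before its start, in the 3′ UTR exon of *flh-1*, and both tools found it. The match of *col-121* lies 2048 bases before its start, in exons of *F56D5.2* and *F56D5.3*, and both tools found it. The matches of *col-165* lie 651 bases before its start and 306 bases after it. The match after the start lies in the gene's own coding exon and was found by both tools, the other by FIMO only. A match is a description and not a measured binding event.

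Low-level col genes varied by library within both groups. Among the 98 tested members under 100 CPM, WT replicate 1 was the lowest library in 43 (43.9%, against 16.9% of all tested genes of that level). *grh-1* OEx replicate 2 was the highest in 37 (37.8%, against 19.3%) and WT replicate 2 in 36 (36.7%, against 12.6%). The median deviations from each gene's mean over the libraries were -0.0042, 0.27 and 0.04 on the log2 scale in *grh-1* OEx and -0.26, 0.28 and -0.08 in WT. Over all tested genes of that level they were -0.05 to 0.03.

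The 8 members with the largest spread over libraries were *col-110*, *col-139*, *col-81*, *col-129*, *col-79*, *col-63*, *col-175* and *col-7*. Of these, *col-110*, *col-79* and *col-7* had only 161, 118 and 112 counts in all libraries together, so their spread includes counting noise. *col-129* stood at 24.98, 70.96 and 29.4 CPM in *grh-1* OEx and 4.73, 28.9 and 25.4 CPM in WT, *col-139* at 18.1, 37.4 and 15.9 CPM in *grh-1* OEx and 2.30, 20.3 and 20.9 CPM in WT. *col-81* stood at 14.8, 35.9 and 15.1 CPM in *grh-1* OEx and 2.16, 15.5 and 14.4 CPM in WT, and *col-63* at 7.80, 26.5 and 16.1 CPM in *grh-1* OEx and 3.04, 17.3 and 13.9 CPM in WT. In each of these 4 genes, and in *col-175* and *col-7*, *grh-1* OEx replicate 2 was highest and WT replicate 1 lowest. *col-110* was highest in WT replicate 2 and lowest in WT replicate 1, and *col-79* was highest in WT replicate 2 and lowest in WT replicate 3. None of the 8 passed at an unadjusted p under 0.05 with all libraries.

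**Figure D4:**
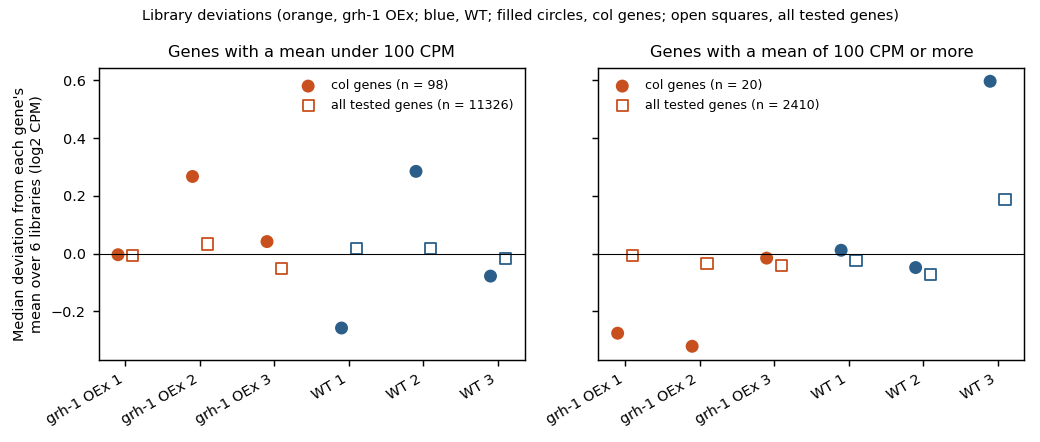
Median deviation of each library from the gene's own mean over 6 libraries, on the log2 CPM scale, for genes under 100 CPM (left) and of 100 CPM or more (right). Filled circles are col genes (98 and 20) and open squares are all tested genes of that level; orange is *grh-1* OEx and blue is WT. WT replicate 1 is lowest on the left at -0.26 and WT replicate 3 highest on the right at 0.60.

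The share of a library's counts on col genes was 0.981%, 0.929% and 1.14% in *grh-1* OEx, against 1.16%, 1.23% and 1.46% in WT. The groups did not overlap, although *grh-1* OEx replicate 3 lay close below WT replicate 1. Without the 5 col genes with the most counts the share was 0.545%, 0.559% and 0.646% in *grh-1* OEx, against 0.591%, 0.636% and 0.772% in WT. These values overlapped, with *grh-1* OEx replicate 3 above WT replicates 1 and 2. On genes of 100 CPM or more alone the share was 0.869%, 0.787% and 1.03% in *grh-1* OEx, against 1.07%, 1.09% and 1.37% in WT, without overlap. On genes under 100 CPM it was 0.112%, 0.143% and 0.111% in *grh-1* OEx, against 0.0927%, 0.136% and 0.0936% in WT, with overlap.

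The other collagen and molting genes gave a background for these values. Among the 6 furrow collagens, which shape the cuticle's annular furrows, 0 passed the adjusted threshold and 0 had an unadjusted p under 0.05, and their median log2 fold change was 0.18. Among the 14 body-shape and blister collagens, 0 passed, but 2, *dpy-14* and *dpy-17*, had higher means at an unadjusted p under 0.05, a limit that 2.18% of all tested genes met on this side. *dpy-17* stood at 94.8, 148 and 85.9 CPM in *grh-1* OEx, against 60.8, 66.8 and 81.5 CPM in WT, without overlap. *dpy-14* stood at 86.9, 91.0 and 43.9 CPM in *grh-1* OEx, against 39.2, 35.9 and 51.2 CPM in WT, with overlap. The list's median was 0.28.

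Among 12 molting genes 0 passed the adjusted threshold and 3, *noah-1*, *noah-2* and *fbn-1*, had higher means at an unadjusted p under 0.05, which compares with 2.18% over the whole table. The list median was 0.41. *noah-1* and *noah-2* encode ZP-domain proteins of the apical matrix. *fbn-1* encodes a fibrillin-related matrix protein. The 12 genes together summed to 441, 541 and 279 CPM in *grh-1* OEx and 272, 314 and 312 CPM in WT, so that replicates 1 and 2 of *grh-1* OEx lay above every WT library and replicate 3 did not. The 4 basement membrane and other collagens (median -0.03), the 4 cross-linking genes (median -0.10) and 11 tested processing enzymes (median 0.07) had none past the adjusted threshold and none at an unadjusted p under 0.05.

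**Figure D5:**
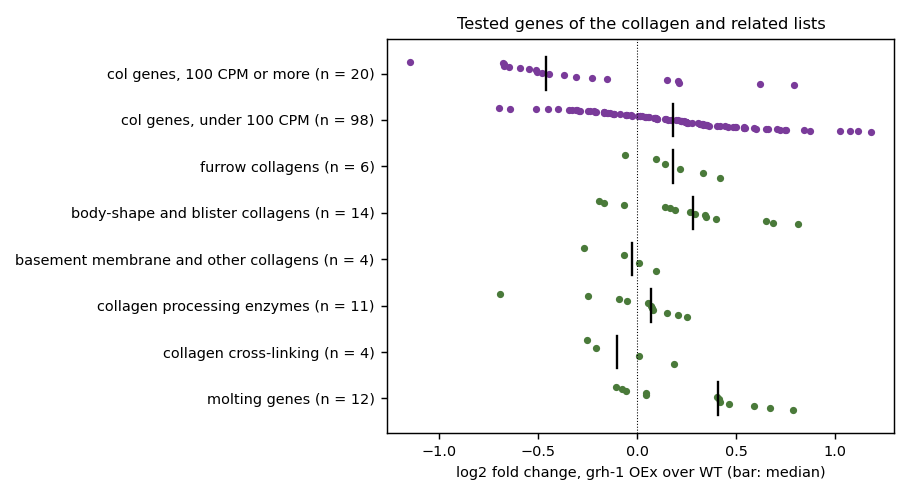
log2 fold change of *grh-1* OEx over WT for each tested gene of the col family, split at 100 CPM, and of the collagen and molting lists. Points are genes and bars are medians, which run from -0.46 for col genes of 100 CPM or more to 0.41 for the molting genes.

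The epidermis markers moved with the libraries too. The 10 markers summed to 661, 764 and 436 CPM in *grh-1* OEx, against 420, 537 and 747 CPM in WT, with 0 past the adjusted threshold and 0 at an unadjusted p under 0.05. The 5 muscle markers summed to 1237, 1262 and 838 CPM in *grh-1* OEx, against 767, 1096 and 1579 CPM in WT. In both lists WT replicate 1 was lowest, as for the low-level col genes, and WT replicate 3 was highest (muscle) or second to *grh-1* OEx replicate 2 (epidermis). Their part in these differences was not tested.

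Gene models overlapped in part. The spans of 34 col genes overlap another gene of the table, in 32 cases on the opposite strand, and 18 share exonic bases, 13 of which were tested. Without strand, reads of the 2 genes cannot be told apart there. *col-101*, *col-119* and *col-80* lie within introns of other genes, with 0 shared exonic bases.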

How the data were processed

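RNA was sequenced from whole nematodes of *grh-1* OEx line 1 and of wild-type N2, 3 libraries each, which the methods describe as independent biological samples. Groups and replicate numbers come from the labels. The authors enriched poly(A) RNA with a kit that does not mark strand. They trimmed the reads, used STAR for alignment to WBcel235 and obtained whole-number counts per gene from featureCounts. Per the labels, FastQC, DESeq2 and Subread were also used, and no versions are given in the sources used here. The deposited raw counts of 20362 genes were analysed. The authors also deposited normalized counts as a signal, FPKM, and the p-values, adjusted values and log2 ratios of their own comparison, none of which were used here.

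All genes were tested together on the raw counts with the quasi-likelihood test of edgeR 4.0.16 (R 4.3.3) and TMM factors. filterByExpr, set to a minimum of 10 counts per library and 15 in total, left 13736 genes. Benjamini-Hochberg adjustment ran over these, with a threshold of 0.05. The biological coefficient of variation was 0.21, and within each group no library was a copy of another. Tests of 3 against 3 libraries measure the spread between these libraries. CPM were scaled by TMM, and the library deviations used a prior count of 2. The steps were tested on simulated data. Coordinates are those of the deposited table, and exons and overlaps come from the WBcel235 annotation, release 115. The predicted GRH-1 sites were read from the study's supplementary data.

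Genes were named if they had an unadjusted p under 0.05, or were among the 12 highest per kilobase or the 8 of largest spread. Others lay in a chosen interval of chromosome IV, had a role stated as background, or were among the 5 nearest to *col-19*. *col-116* was the only col gene in that interval, and the other genes of the interval are not described here. Genes named for small counts, clusters, overlaps or within the lists were chosen after their values were seen. The family and all gene lists were chosen with earlier results of these data known. Alternatives were DESeq2 1.42.0, limma-voom (limma 3.58.1), RLE factors, upper-quartile factors, an unfiltered table, a stricter filter of 10 counts per library, a replicate block, and leaving out single libraries. The split at 100 CPM and the fit without WT replicates 1 and 3 were added after seeing the data. Of 14 listed processing enzymes 12 were found and 11 tested. Intestine (6 genes), neuron (5), germline (5) and oocyte (6) markers had median log2 fold changes of -0.02, -0.04, -0.10 and -0.12, with 0 past the threshold and, at an unadjusted p under 0.05, 1, 0, 0 and 1 genes. The 24 tested sperm markers had a median of -2.20, with 0 past the threshold and 10 lower at an unadjusted p under 0.05. On that side 4.44% of all tested genes met this limit. The sperm markers summed to 610 CPM in WT replicate 3, against 13.5 to 86.9 CPM in the other libraries, so this median depends on that library.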

Additional observations from a re-analysis of the deposited data

How the results depend on the processing

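The count of col genes past the adjusted threshold was 0 with edgeR, 4 with DESeq2, and 0 to 2 when 1 library was left out (2 without WT replicate 1 and 2 without WT replicate 3). It was 0 under the other alternatives. DESeq2 gave *col-95* an adjusted p of 0.000122. At an unadjusted p under 0.05 there were 8 higher and 9 lower col genes, 15 higher with the replicate block (5.27% of all tested genes in either direction then, against 6.62%), and 3 to 23 higher and 3 to 12 lower when 1 library was left out. Whether the replicate numbers pair the samples could not be settled. The deviations of same-numbered libraries correlated at 0.23, -0.01 and -0.12, and not every library correlated best with its own number. Deviations within a group of 3 libraries are not independent, and WT replicate 3 stood apart, so these values cannot decide it. Among members of 100 CPM or more, 3 to 11 were lower at an unadjusted p under 0.05 when 1 library was left out. The share of all genes of that level in those fits is not given here. The median of these members was -0.55 to -0.14 when 1 library was left out and -0.14 without WT replicates 1 and 3 together. The median of all tested members was -0.01 to 0.34 when 1 library was left out, and -0.14 without both. That of members under 100 CPM was 0.02 to 0.39, and -0.14 without both.

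Of 41 named genes, 15 turned direction in 29 of 571 alternative fits, and none of these 15 had an unadjusted p under 0.05 with all libraries. Without WT replicates 1 and 3 the log2 fold change was 0.011 for *col-140*, -0.94 for *col-110*, -0.73 for *col-79*, -0.053 for *col-63*, -0.37 for *col-7*, -0.28 for *col-10*, -0.27 for *col-12*, -0.50 for *col-13*, -0.19 for *col-144* and 0.014 for *col-135*. With no filter it was 0.0040 for *col-62*. When 1 library was left out it ran from -0.043 to 0.39 for *col-8*, from -0.13 to 2.20 for *col-110*, from -0.041 to 2.16 for *col-79*, from -0.11 to 1.21 for *col-7*, from -0.23 to 0.28 for *col-10*, from -0.047 to 0.74 for *col-13*, from -0.70 to 0.38 for *col-62*, from -0.26 to 0.080 for *col-99*, from -0.14 to 0.31 for *col-144*, from -0.067 to 0.73 for *col-138*, from -0.11 to 0.38 for *col-159* and from -0.62 to 0.34 for *col-135*. The cause was not tested. *col-95*, *col-106*, *col-116*, *col-121* and *col-122* kept their direction and an unadjusted p under 0.05 under all 14 alternatives. 3 libraries a group limit what can be called for low-level genes.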
